A study of Homo sapiens with 8 samples.

Results

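The genes described here are 10 immediate early genes: the zinc finger factors EGR1, EGR2 and EGR3, the immediate early response genes IER2, IER3 and IER5, the orphan nuclear receptor NR4A1, the Krüppel-like factors KLF4 and KLF6, and MYC. They were chosen by symbol, through the Entrez identifier of each row, and all 10 were found among the 18478 genes of the deposited table. The study measured total RNA by RNA-seq in 4 groups of established human melanoma cell lines. They are C8161 with ATF3 introduced by a retrovirus (3 libraries), C8161 neomycin control (3 libraries), A2058 with ATF3 introduced in the same way (1 library) and A2058 neomycin control (1 library). The medium of all groups was DMEM containing fetal bovine serum and antibiotics, and the labels name no further stimulus. The labels do not say which promoter drove the introduced ATF3, whether the transduced cells were clones or pools, or whether the 3 C8161 libraries of an arm came from separate cultures. The table holds 1 column for each A2058 library and 1 combined column for each C8161 arm, in RPKM, a read number scaled to transcript length and library size. No replicate spread could therefore be computed and no test was run. All differences below describe these columns only, and in such bulk samples fewer cells of a kind and less RNA per cell cannot be told apart.

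Immediate early genes are transcribed within minutes of a growth factor, stress or serum signal without new protein synthesis. MAP kinase signalling acts on the factors SRF and ELK, which are already bound at the promoters of several of them. The transcripts are short-lived, often through AU-rich elements in the 3′ untranslated region, and in melanoma lines with an active MAP kinase pathway several stay on in growing cells. ATF3, itself induced by stress as an early gene, binds cyclic AMP response elements and AP-1 elements together with other basic leucine zipper proteins.

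ATF3, the introduced gene, was at 62.6 RPKM in C8161 cells with ATF3 against 4.76 RPKM in C8161 controls, and at 4.71 RPKM in A2058 cells with ATF3 against 1.22 RPKM in A2058 controls. Markers of the melanocyte lineage separated the lines. All 11 listed melanoma and melanocyte markers reached 1 RPKM in both A2058 columns, whereas 3 did so in the C8161 column with ATF3 and 2 in the C8161 control. Their summed level was 51.6 and 53.2 RPKM in C8161 (ATF3 and control), and 1950 and 1912 RPKM in A2058. SOX10, TYR, DCT and S100B lay under 0.1 RPKM in both C8161 columns. Endothelial markers summed to 18.8 RPKM in C8161 with ATF3 and 9.33 RPKM in its control, nearly all of it CDH5 (18.1 and 8.86 RPKM), and to 0.80 and 0.68 RPKM in A2058 (ATF3 and control), and their part in the ratios below was not tested. Fibroblast markers summed to 0.83 and 0.80 RPKM in C8161 (ATF3 and control), and to 13.8 and 12.5 RPKM in A2058. Leukocyte markers summed to less than 1 RPKM in all 4 columns. Keratinocyte markers summed to 15.3 and 16.2 RPKM in C8161 (ATF3 and control), and to 31.6 and 30.8 RPKM in A2058. Nearly all of it was KRT10 (15.3 and 16.2 RPKM in C8161, 31.2 and 30.4 RPKM in A2058). KRT5 and KRT14 lay under 1 RPKM in all 4 columns. Low values of the A2058 columns fell loosely on steps of whole reads, which places their depth near 18400000 reads (ATF3) and 18700000 reads (control). The depth of the combined C8161 columns could not be read in this way.

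The promoters printed here are those of EGR1, the classical serum-induced gene, of KLF4, the member with the largest excess in C8161, and of IER2, an abundant member in both lines. Each runs from 250 bases before to 50 bases after the RefSeq gene start in GRCh38.p14, 5′ to 3′ on the gene's strand. Capitals mark CArG boxes, the SRF-bound core of serum response elements, and the sequence TGACG, the core of the cyclic AMP response element, on either strand. EGR1 lies at chr5:138465229-138465528 (plus strand), KLF4 at chr9:107489720-107490019 (minus strand) and IER2 at chr19:13150161-13150460 (plus strand).
EGR1: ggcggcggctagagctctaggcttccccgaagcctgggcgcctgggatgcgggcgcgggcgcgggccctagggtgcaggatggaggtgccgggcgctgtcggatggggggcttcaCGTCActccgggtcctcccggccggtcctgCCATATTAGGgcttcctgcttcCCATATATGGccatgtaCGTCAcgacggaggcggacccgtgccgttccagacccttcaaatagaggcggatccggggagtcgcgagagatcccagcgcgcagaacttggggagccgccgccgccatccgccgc
KLF4: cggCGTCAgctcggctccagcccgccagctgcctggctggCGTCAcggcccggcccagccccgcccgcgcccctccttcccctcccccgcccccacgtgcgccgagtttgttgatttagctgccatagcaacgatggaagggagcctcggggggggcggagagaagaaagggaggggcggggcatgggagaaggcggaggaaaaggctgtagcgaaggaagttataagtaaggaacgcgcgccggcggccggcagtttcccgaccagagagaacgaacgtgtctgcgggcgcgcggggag
IER2: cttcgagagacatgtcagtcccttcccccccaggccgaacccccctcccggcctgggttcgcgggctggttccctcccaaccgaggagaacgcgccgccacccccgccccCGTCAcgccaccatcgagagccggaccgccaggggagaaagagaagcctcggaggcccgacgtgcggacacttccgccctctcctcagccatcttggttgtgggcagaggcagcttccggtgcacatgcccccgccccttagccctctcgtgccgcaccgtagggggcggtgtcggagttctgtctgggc

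RefSeq promoters were at hand for 7 of the 10 members (EGR1, EGR2, IER2, IER5, NR4A1, KLF4 and KLF6). EGR1 held 2 CArG boxes, starting at positions −105 and −83 from the gene start, and was the only one of the 7 with any, against 1.13% of the 14364 promoters matched to genes of the table. TGACG was present in EGR1, IER2 and KLF4, and in 30.8% of all promoters. The full element TGACGTCA, which contains TGACG, and the AP-1 element TGACTCA were in none of the 7, and in 2.76% and 3.65% of all promoters. The MYC-type E-box CACGTG was present in KLF4 and KLF6 (9.25% of all promoters), and the EGR element GCGGGGGCG in KLF6 (7.25%). The other form of the EGR element, GCGTGGGCG, and the TATA box TATAAA, read on the gene's strand only, matched none of the 7, against 1.16% and 5.71% of all promoters. All elements but the TATA box were searched on both strands. No other spelling of the TATA box was searched, so the 7 promoters cannot be taken to lack one. For NR4A1 the window sits at the outermost annotated start of a gene with several. A match of letters is not a bound site.

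For most of the 10 genes the columns of a line lay closer to each other than to those of the other line, whether or not ATF3 had been introduced. The EGR genes were the least abundant family. EGR1, the founding member, was at 1.62 RPKM in C8161 cells with ATF3 and 1.28 RPKM in C8161 controls, and at 1.75 RPKM in A2058 cells with ATF3 and 1.64 RPKM in A2058 controls. The C8161 control was the lowest of these 4 columns, and all 4 lay between 1.28 and 1.75 RPKM. EGR2, known for its role in Schwann cell myelination, was at 0.02 and 0.05 RPKM in C8161 (ATF3 and control), and at 0.51 and 0.38 RPKM in A2058. EGR3, a close relative induced by the same signals, was at 0.01 and 0.02 RPKM in C8161 (ATF3 and control), and at 2.89 and 2.63 RPKM in A2058. EGR3 was thus close to 0 in both C8161 columns and above EGR1 in both A2058 columns. EGR1 (chromosome 5, 138465479 to 138469303), EGR2 (chromosome 10, 62811996 to 62819167) and EGR3 (chromosome 8, 22687659 to 22693480) are each annotated with 2 exons in their longest coding transcript.

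The IER genes were among the abundant transcripts of both lines. IER3, an early response protein linked to survival signalling, was at 111 and 114 RPKM in C8161 (ATF3 and control), and at 183 and 177 RPKM in A2058, the highest member in all 4 columns. IER2, a nuclear early response protein, was at 55.07 and 55.09 RPKM in C8161 (ATF3 and control), and at 34.2 and 33.2 RPKM in A2058. IER5, a relative that acts with the heat shock factor HSF1, was at 38.3 and 39.99 RPKM in C8161 (ATF3 and control), and at 34.3 and 32.9 RPKM in A2058. IER3 was the higher in A2058 and IER2 the higher in C8161, while the IER5 values of the lines lay close together. The genes lie at chromosome 6, 30743199 to 30744547 (IER3), chromosome 19, 13150411 to 13154911 (IER2), and chromosome 1, 181088700 to 181092900 (IER5). Genes annotated on the opposite strand overlap 32.2% of the IER2 transcript and 26.6% of the IER3 transcript, and the strand setting of the authors' counting is not given in the sources used here, so reads of both strands cannot be told apart for these genes.

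NR4A1, the nuclear receptor NUR77 (chromosome 12, 52022832 to 52059503), was at 4.02 RPKM in C8161 cells with ATF3 and 3.96 RPKM in C8161 controls, and at 31.2 and 29 RPKM in A2058 (ATF3 and control). Both C8161 columns lay far under both A2058 columns. An opposite-strand gene overlaps 21.4% of its longest coding transcript, with the same limit. KLF4, a factor of epithelial differentiation and one of the reprogramming factors (chromosome 9, 107484852 to 107489769), showed the reverse order. It was at 9.82 and 9.94 RPKM in C8161 (ATF3 and control), and at 1.90 and 1.89 RPKM in A2058. KLF6, a widely expressed relative with tumour suppressor functions (chromosome 10, 3775996 to 3785209), was at 34.7 and 31.9 RPKM in C8161 (ATF3 and control), and at 22.5 and 23.6 RPKM in A2058. MYC, the basic helix-loop-helix factor that drives growth and ribosome production (chromosome 8, 127735434 to 127742951), was at 100.3 and 107 RPKM in C8161 (ATF3 and control), and at 38.6 and 42.5 RPKM in A2058. MYC was higher in both C8161 columns than in either A2058 column, and its column with ATF3 was the lower one in each line.

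**Figure D1:**
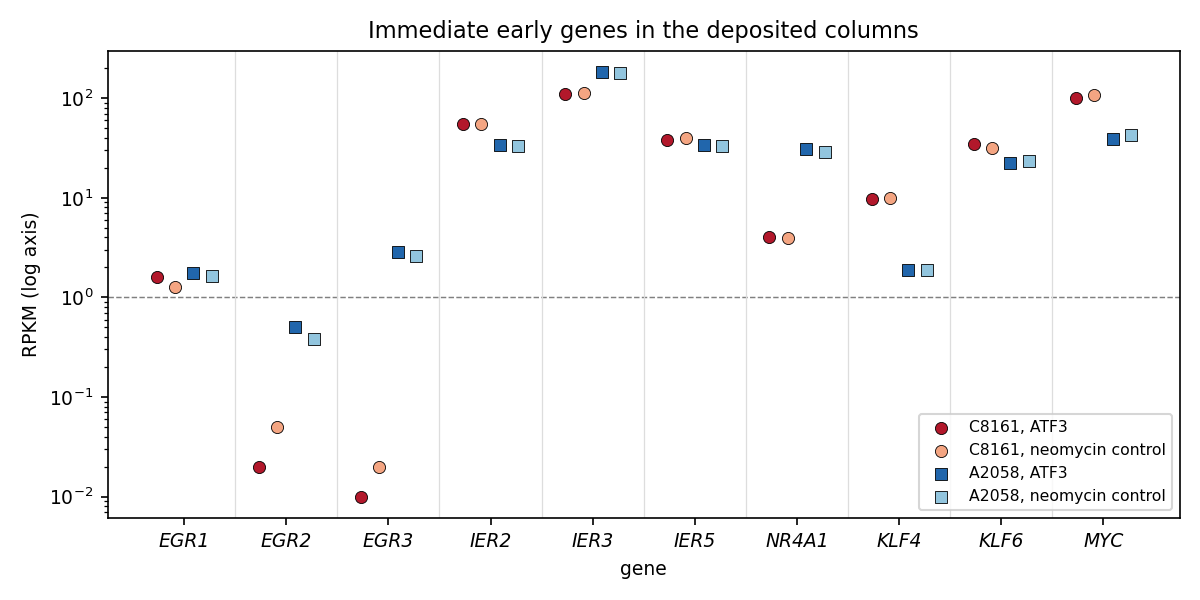
RPKM of the 10 genes on a log axis, with 1 point per deposited column: C8161 with ATF3, C8161 control, A2058 with ATF3, A2058 control. The dashed line marks 1 RPKM. The columns of a line lie close together for most genes, whereas NR4A1 and EGR3 lie lower and KLF4 and MYC higher in C8161 than in A2058.

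The order of the levels within a column was led by IER3 and MYC in all 4 columns. In the C8161 column with ATF3, IER2, IER5, KLF6, KLF4, NR4A1 and EGR1 followed in this order, with EGR2 and EGR3 near 0. The A2058 column with ATF3 held IER5 and IER2 almost level, then NR4A1, KLF6, EGR3, KLF4, EGR1 and EGR2. In the A2058 control IER2 stood just above IER5. With no spread over libraries, neighbours in these orders cannot be separated.

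The study's main question was what introduced ATF3 does to the transcriptome of each line. Ratios were computed as log2 of (RPKM + 1), with ATF3 over control, keeping genes that reached 1 RPKM in either column, and a gene was called at 1.2-fold on this scale, a log2 ratio of 0.26. The added 1 understates differences of low genes. In C8161, 8 of the 10 members were compared, EGR2 and EGR3 being under the minimum, and 0 were called in either direction, where 4.92% of all 10941 genes compared were called. In A2058, 9 members were compared, EGR2 being under the minimum, and again 0 were called, where 3.53% of 11883 genes were. With so few members a count of 0 lies near what these backgrounds give. The median of the members compared was −0.01 in C8161 beside 0.01 over all genes, and 0.05 in A2058 beside 0.00.

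EGR1 had the largest ratio of the C8161 members, 0.20, from 1.62 RPKM with ATF3 against 1.28 RPKM in the control. On RPKM itself this was 1.27-fold, and with a pseudocount of 0.1 the log2 ratio was 0.32, past 1.2-fold. In A2058 the EGR1 ratio was 0.06. There the RPKM corresponded to about 101 reads with ATF3 and 96 in the control, which puts the fold of 1.07 between 0.80 and 1.43 (95% Clopper-Pearson interval of the read share, counting error only, at the approximate depths above). KLF6 followed in C8161 with 0.12, and had −0.06 in A2058. MYC was the one member with a negative ratio in both lines, −0.10 in C8161 and −0.13 in A2058. Its A2058 fold of 0.909 had a counting interval of 0.851 to 0.972 from about 1682 and 1877 reads (ATF3 and control), an interval that leaves out any difference between cultures or library preparations.

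The other members had small ratios. In C8161 they were 0.02 for NR4A1, −0.02 for KLF4, −0.03 for IER3 and −0.06 for IER5, and IER2 differed by 0.00. In A2058 they were 0.10 for EGR3, 0.10 for NR4A1, 0.06 for IER5, 0.05 for IER3, 0.04 for IER2 and 0.00 for KLF4. NR4A1, at about 2017 reads with ATF3 and 1902 in the control, had a fold of 1.08 with a counting interval of 1.01 to 1.15. The A2058 counting intervals of EGR3, IER2, IER3, IER5, KLF4 and KLF6 all took in equal levels in the arms. All read numbers assume the longest coding transcript of each gene. EGR2, about 28 and 21 reads in A2058 (ATF3 and control), had a fold of 1.34 with an interval of 0.742 to 2.51, so that this low gene tells little either way.

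The spread of other genes at the same level gives a scale for these ratios. Each member was set against the 500 genes closest to it in mean level, whose central 95% of ratios forms a range that by construction leaves about 5% of genes outside, 5.41% in C8161 and 5.39% in A2058. All 8 members compared in C8161 lay inside, EGR1 nearest to an edge with 0.20 under an upper edge of 0.26. In A2058, MYC lay just outside with −0.13 against a lower edge of −0.12, and the other 8 lay inside. For the abundant members this range was wider in C8161, as for IER3 (−0.28 to 0.26 there, −0.08 to 0.13 in A2058).

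**Figure D2:**
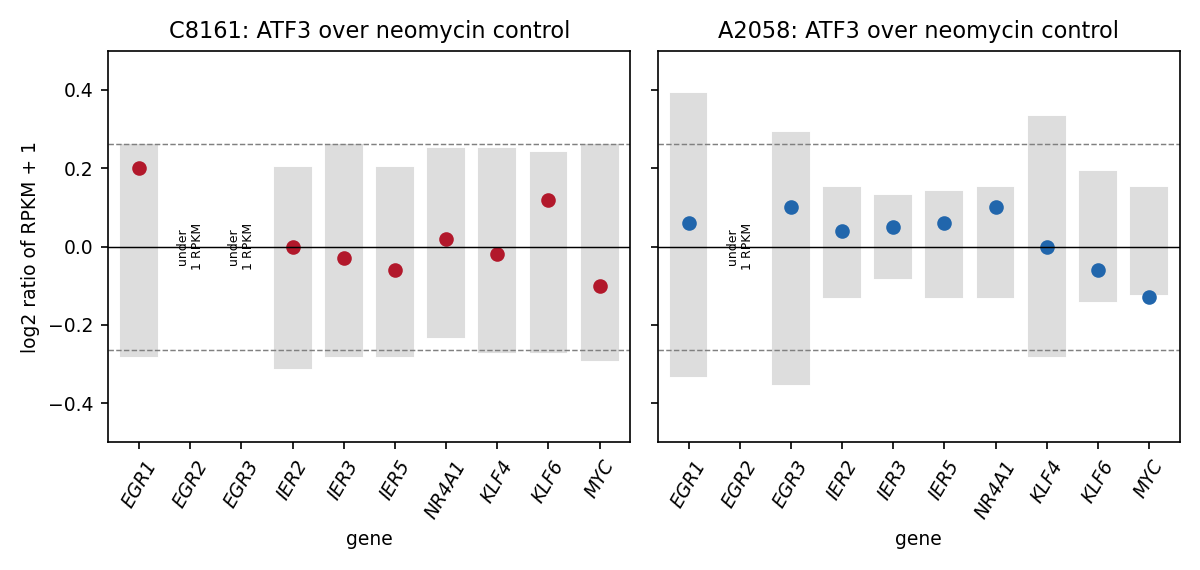
Log2 ratio of RPKM + 1, ATF3 over neomycin control, for the 10 genes in C8161 (left) and A2058 (right). Grey boxes are the central 95% of the 500 genes nearest in level, and dashed lines mark 1.2-fold in either direction. No point passes the dashed lines, and MYC in A2058 lies just under its box.

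The C8161 ratios of all genes moved with base composition, with a Spearman rho of −0.43 with transcript GC content across 10861 genes, which are not independent replicates, against 0.10 across 11758 genes in A2058. Of the calls in C8161, 44.8% were higher and 55.2% lower as deposited, and 77.0% and 23.0% after the trends with GC content and length were removed. The members are mostly GC-rich, with a median of 54.4% beside 48.9% over all genes. Removal of the trends took the median of the C8161 members from −0.01 to 0.07 and turned the small negative ratios of IER3 and KLF4 to 0.07 and 0.02, and put IER2 at 0.10. It left 0 members called. At 1.1-fold, a threshold tried after the data were seen, EGR1 alone was higher, where 12.7% of all genes were, and 0 members were lower, where 14.1% were.

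The lines themselves differed far more in these genes than the arms did. In the controls, 9 members were compared between C8161 and A2058, EGR2 being under the minimum, and 4 differed by 2-fold or more, 2 in each direction. In all, 30.0% of 12372 genes did so, 9.37% higher and 20.7% lower in C8161, so the members' share lies near the background. KLF4 had a log2 ratio of 1.92 and MYC of 1.32, and on RPKM itself they were 5.26-fold and 2.52-fold higher in C8161. NR4A1 had −2.60, 7.32-fold lower in C8161 on RPKM. EGR3 had −1.83, and no fold is given because its C8161 value of 0.02 RPKM is close to the rounding of the table. The columns with ATF3 gave 1.90 for KLF4, 1.35 for MYC, −2.68 for NR4A1 and −1.95 for EGR3, and the same genes were past 2-fold, where 31.3% of 12381 genes were, 9.92% higher and 21.4% lower. At 1.5-fold, tried after the data were seen, IER2 (0.67) and KLF6 (0.60) joined the members higher in C8161, where 18.1% of all genes were, and IER3 (−0.71) joined those lower, where 33.6% were. Set against the 500 genes closest in level, NR4A1 in the columns with ATF3 lay below its range (lower edge −2.25), where 5.06% of all genes lay outside, and 0 members did in the controls, where 4.95% did.

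The median of all genes was −0.19 in the comparison of the controls. Relative to that shift the ratios were 2.11 for KLF4, 1.5 for MYC, −2.41 for NR4A1 and −1.65 for EGR3, and all 4 stayed past 2-fold under quantile normalization as well (2.26, 1.38, −2.34 and −1.57 in the same order). Among all genes called, 31.2% were higher and 68.8% lower in C8161 as deposited, 42.6% and 57.4% after centring, and 46.5% and 53.5% after quantile normalization. The remaining members had control ratios of 0.71 (IER2), 0.42 (KLF6), 0.27 (IER5), −0.21 (EGR1) and −0.64 (IER3). EGR1 changed sign to 0.27 under quantile normalization, so no direction can be given for it. The low level of melanocyte markers in C8161 moves with every one of these line differences, and its part in them was not tested.

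The relatives of the members were set beside them from lists of related genes. NR4A2 and NR4A3, the other NUR77-like receptors, showed the order of NR4A1: NR4A2 was at 0.35 and 0.30 RPKM in C8161 (ATF3 and control), and at 2.28 and 2.33 RPKM in A2058, and NR4A3 was at 0.06 and 0.07 RPKM in C8161 and at 3.58 and 3.99 RPKM in A2058. EGR4 was listed at 0 in all 4 columns. With IER5L and IER3IP1, a gene named after IER3 but unrelated to it in sequence, 4 of these 5 relatives were compared between the controls, and 3 were past 2-fold, all lower in C8161, where 20.7% of all genes were. They were NR4A3 (−2.22), IER5L (−1.39) and NR4A2 (−1.36). IER5L was at −0.79 with GC and length trends taken out and NR4A2 at −0.91 under quantile normalization, both under 2-fold. With a minimum of 5 RPKM, NR4A2 and NR4A3 were not compared. Then 1 of the list was lower, where 19.4% of all genes were. Between the columns with ATF3 all 4 compared were past 2-fold lower in C8161, where 21.4% of all genes were. In the ATF3 comparison 0 were called in either line, where 4.92% (C8161) and 3.53% (A2058) of all genes were. IER5L had the ratio of largest size there, −0.20 in C8161, at 4.30 RPKM with ATF3 against 5.10 RPKM.

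Of the 15 other KLF genes, 9 were compared in C8161 and 10 in A2058 between arms, and 0 were called in either. The share over all genes was 4.92% in C8161 and 3.53% in A2058. KLF5, a factor of epithelial proliferation, was at 8.63 RPKM in C8161 with ATF3 against 7.51 RPKM, KLF7 at 7.33 against 6.46 RPKM and KLF10, a TGF-beta-induced factor, at 35.7 against 32.6 RPKM. In A2058, KLF11 was at 5.31 and 4.65 RPKM (ATF3 and control) and KLF3 at 7.02 against 6.22 RPKM. Between the controls 11 were compared, with 3 past 2-fold higher in C8161 and 3 lower, where 9.37% and 20.7% of all genes were. With a minimum of 5 RPKM, KLF11 and KLF15, both lower as deposited, were not compared. Then 1 was lower, where 19.4% of all genes were. KLF2, a close relative of KLF4 picked out because of its value, was at 13.5 RPKM in the C8161 control against 0.99 RPKM in the A2058 control, the order of KLF4, whereas KLF9, picked likewise, was at 0.50 against 6.79 RPKM.

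The corepressors and upstream factors of the EGR genes formed a list of 9. NAB2, a corepressor that binds EGR proteins and is itself an EGR target, was at 4.14 and 4.44 RPKM in C8161 (ATF3 and control), and at 38.5 and 39.9 RPKM in A2058. Between the controls 2 of the 9 were past 2-fold higher in C8161, FHL2 (1.70) and ELK3 (1.62), and 1 was lower, NAB2 (−2.91), where 9.37% and 20.7% of all genes were. With a pseudocount of 0.1, 2 were lower, where 24.9% of all genes were. NAB1 was at 7.5 and 7.43 RPKM in C8161 and at 9.55 and 10.3 RPKM in A2058. SRF, which binds the CArG box, was at 20.0 and 20.8 RPKM in C8161 (ATF3 and control), and at 18.6 RPKM in both A2058 columns. Of these 9 genes, 1 was called in C8161, lower, and 0 in A2058, where 2.71% and 1.51% of all genes were called lower. That gene was FHL2, a LIM-domain cofactor, at 85.7 RPKM in C8161 cells given ATF3 and 103 RPKM in their control. Its log2 ratio was −0.27, and −0.30 with GC and length trends taken out. Under quantile normalization FHL2 was at −0.26, just under 1.2-fold. There 0 of the list were called lower, where 2.31% of all genes were. ELK3, an SRF partner, was at 48.1 against 44.8 RPKM in C8161 and at 13.1 against 13.9 RPKM in A2058. ELK4 was at 4.59 against 4.23 RPKM in C8161. In A2058, MRTFB was at 3.13 and 3.54 RPKM (ATF3 and control) and ELK1 at 23.2 against 21.1 RPKM.

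Among 26 further immediate early genes, 24 were compared in C8161, with 0 called higher and 2 lower, and 25 in A2058, with 1 in each direction. Of all genes, 2.20% were called higher and 2.71% lower in C8161, and 2.02% and 1.51% in A2058. The 2 in C8161 were the kinase PLK3, at 4.08 RPKM with ATF3 against 5.21 RPKM, and the cytokine LIF, at 18.5 against 22.5 RPKM. With GC and length trends taken out, their log2 ratios of −0.29 and −0.27 became −0.19 and −0.23, under 1.2-fold, and under quantile normalization LIF was at −0.25. ZFP36, which encodes tristetraprolin, a protein that destabilizes AU-rich transcripts, was at 9.42 and 7.76 RPKM in C8161 (ATF3 and control), and at 6.02 and 4.63 RPKM in A2058. Its log2 ratios were 0.25 in C8161, just under the threshold, and 0.32 in A2058, past it. The C8161 ratio also passed with the trends taken out, at 0.32. SIK1 was the A2058 gene called lower, at 0.99 against 1.65 RPKM, and it is uncertain because 92.2% of its 50-base windows also occur in other genes. CXCL1 was at 7.04 against 5.87 RPKM in A2058. Between the controls 11 of 26 were past 2-fold higher in C8161 and 6 lower, where 9.37% and 20.7% of all genes were. Under quantile normalization 3 were lower, where 15.1% of all genes were. CCN1, a matricellular target of SRF and YAP picked out because of its value, was at 579 RPKM in the C8161 control against 6.06 RPKM in the A2058 control. The low EGR3 and NR4A1 of C8161 thus stood beside other immediate early genes far above their A2058 level.

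The AP-1 genes, transcribed by the same signals, had 0 of 7 called in C8161 and 0 of 6 in A2058. Of all genes, 4.92% and 3.53% were called. FOS was at 1.99 against 1.62 RPKM in C8161 and at 9.40 against 7.83 RPKM in A2058 (ATF3 against control), FOSL1 at 560 against 489 RPKM in C8161, FOSL2 at 26.1 against 29.1 RPKM in C8161, and JUNB at 15.5 against 18.0 RPKM in C8161 and 55.3 against 49.97 RPKM in A2058. With GC and length trends taken out, the C8161 log2 ratio of FOSL1 was 0.30, past 1.2-fold, and with a pseudocount of 0.1 that of FOS was 0.28. In A2058, FOS passed under quantile normalization, at 0.27. FOSB, a low gene picked out because of its value, was at 2.13 against 1.61 RPKM in C8161. This was 1.32-fold on RPKM, with a log2 ratio of 0.26, just under 1.2-fold on the scale used. It was at 0.36 against 0.54 RPKM in A2058, under the minimum there. Between the controls 3 of 7 were past 2-fold higher in C8161 and 3 lower, where 9.37% and 20.7% of all genes were. With GC and length trends taken out 1 was lower, where 18.0% of all genes were. JUNB was then at −0.83, against −1.42 as deposited.

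The partners of MYC were compared next. MAX, with which MYC binds DNA, was at 30.9 and 30.7 RPKM in C8161 (ATF3 and control), and at 33.2 and 33.8 RPKM in A2058. Of 16 symbols in the MYC network list 15 had a row, and MIZ1 is an alias of ZBTB17, already on the list. Of 13 compared in each line, 0 were called in C8161 and 1 in A2058, where 4.92% and 3.53% of all genes were. This was FBXW7, the ubiquitin ligase subunit that marks MYC for degradation, at 3.26 RPKM with ATF3 against 4.12 RPKM. Its log2 ratio of −0.27 became −0.25 with GC and length trends taken out, under 1.2-fold. MXD4, a MAX partner that opposes MYC, was at 4.67 against 3.8 RPKM in C8161 and at 9.93 against 11.9 RPKM in A2058, and MNT, another such partner, at 3.71 against 3.16 RPKM in C8161. With GC and length trends taken out, MXD4 and MNT had C8161 log2 ratios of 0.36 and 0.27, past 1.2-fold. ZBTB17 was at 9.10 against 10.4 RPKM in C8161. Between the controls 0 of 13 were past 2-fold higher in C8161 and 3 lower, where 9.37% and 20.7% of all genes were. Among the 3 were MNT and MXD4, and the MXD4 ratio of −1.43 became −0.87 with those trends taken out. The third was MXI1, picked out because of its value, at 2.36 RPKM against 24.8 RPKM. With a pseudocount of 0.1, 5 of the list were lower, where 24.9% of all genes were. After centring 1 was higher, where 12.3% of all genes were.

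MYC targets had a median of −0.06 over 32 genes in C8161 and −0.01 over 33 in A2058, beside 0.01 and 0.00 over all genes. Values of some targets are uncertain because many of their 50-base windows also occur in other genes. The share was 100% for EIF4A1, 87.0% for PPAN and 44.4% for NPM1. No target was called in A2058, where 3.53% of all genes were. Among the 32 in C8161, 0 were called higher and 3 lower, where 2.20% and 2.71% of all genes were. The 3 were the folate carrier SLC19A1, at 19.6 RPKM with ATF3 against 24.8 RPKM, the ribosome assembly factor BOP1, at 89.3 against 111 RPKM, and the spermidine synthase SRM, at 127 against 154 RPKM. Once the GC and length trends were removed, their log2 ratios of −0.33, −0.31 and −0.28 became −0.20, −0.16 and −0.12, so none remained past 1.2-fold. In A2058, UTP20 was at 13.3 and 14.7 RPKM (ATF3 and control) and CAD at 28.2 against 30.6 RPKM. Between the controls the targets had a median of 0.15, beside −0.19 over all genes and 1.32 for MYC itself. Past 2-fold, 2 of 33 were higher in C8161 and 3 lower, where 9.37% and 20.7% of all genes were.

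**Figure D3:**
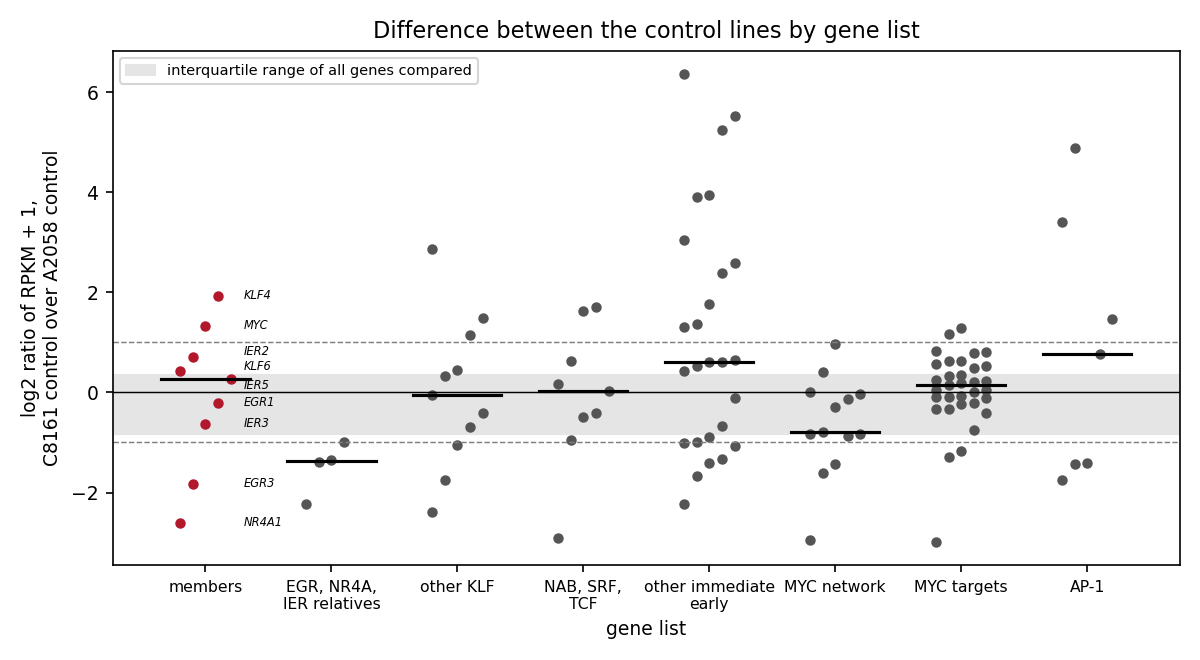
Log2 ratio of RPKM + 1, C8161 control over A2058 control, for the members (red, named) and 7 lists of related genes, with 1 point per gene and a bar at each list's median. The grey band is the interquartile range of all genes compared, from −0.83 to 0.35, and dashed lines mark 2-fold. KLF4 and MYC lie above the upper line, NR4A1 and EGR3 below the lower one, and the other immediate early genes spread widest.

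The genes nearest to EGR1 and MYC in pattern were found by the Euclidean distance between log2(RPKM + 1) values centred on each gene's mean over the 4 columns, among 10670 genes with a mean of at least 2 RPKM. They were CERT1, C2orf49 and TNIP3 for EGR1 (distances 0.030 to 0.032) and TFRC, EHD4 and CLMP for MYC (0.043 to 0.068). For EGR1, 125 genes lay within a distance of 0.1, and for MYC 12 did. With 4 columns such likeness says little. TFRC, for example, was at 216 and 226 RPKM in C8161 (ATF3 and control), and at 85.5 and 92.5 RPKM in A2058.

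The members shared features that their choice by name did not use. Of the 10, 9 span less than 10000 bases, NR4A1 being the exception, as do 20.8% of the 12354 genes that reached 1 RPKM in any column. The median span was 5370 bases beside 30167 over those genes. Likewise 9 of 10 have 5 exons or fewer in their longest coding transcript, beside 28.9% of genes, and the median was 2 exons beside 9. Transcript length did not set them apart, with a median of 3053 bases beside 3371. At least 1 copy of the AU-rich pentamer ATTTA was present in the 3′ untranslated region of 9 members, IER2 being the exception, beside 72.3% of genes. The density of this pentamer had a median of 1.96 per kb over the members, beside 1.66 over all genes. Of the members, 6 lay above the median of all genes and 4 below. The density was highest in MYC with 8.40 per kb, followed by IER3 with 6.64, NR4A1 with 5.39 and IER5 with 3.32. The EGR genes lay under the median of all genes, at 0.81 (EGR1), 1.65 (EGR2) and 1.07 (EGR3) per kb. The members share almost no sequence of 50 bases with transcripts of other genes, at most 0.895% (NR4A1).

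**Figure D4:**
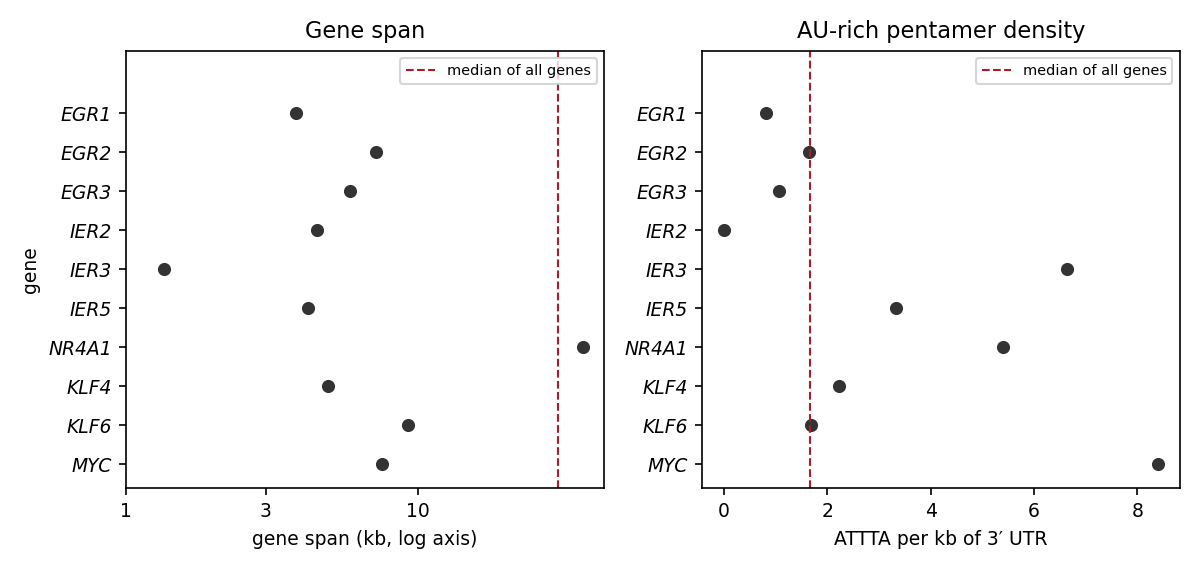
Gene span on a log axis (left) and density of the pentamer ATTTA in the 3′ untranslated region (right) for the 10 genes, with the median of all genes at 1 RPKM or more as a dashed line. All but NR4A1 are shorter than the median span, and MYC, IER3, NR4A1 and IER5 have the densest pentamers.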

How the data were processed

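RNA-seq values of 8 libraries were taken from 1 table that the authors deposited in RPKM, per the file headers, with 2 decimals and 18478 Entrez identifiers. Per the submitters' processing notes, which give no versions, Bowtie2 and RSEM were used with hg38. What annotation, filters and strand option were used is not given in the sources used here, nor whether the combined C8161 columns are means or pooled reads. Without a value per library, the limma test foreseen for C8161 could not be run.

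Symbols and coordinates came from RefSeq (GRCh38.p14), matched on the identifier for 18156 genes. Exon counts, GC content and 3′ untranslated regions came from the longest protein-coding transcript in GENCODE 29, and 17850 genes had a transcript. Promoters came from RefSeq (GRCh38.p14). Ratios used a pseudocount of 1 and a minimum of 1 RPKM in at least 1 column. The computation was checked on simulated counts, with 1.5-fold changes planted in genes at 5 RPKM or more. These counts held counting error only, so the check says nothing on ratios as small as those of the members. GC and length trends were removed by lowess (fraction 0.3). Named genes were the members, ATF3, EGR4, NR4A2, NR4A3, NAB1, NAB2, SRF, MAX, and up to 3 (C8161) and 2 (A2058) genes per list with the largest absolute ratio at a mean of at least 2 RPKM. Members and lists were chosen with earlier results of these data known. Depth was estimated from transcripts of 400 to 1500 bases. Python 3.11.15, pandas 2.3.3 and statsmodels 0.14.6 were used.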

Additional observations from a re-analysis of the deposited data

Results flagged for a closer look

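For 5 members the ATF3 ratio had unlike signs in the lines before rounding, although each line gives 1 ratio and the difference was not tested. The log2 ratio in C8161 minus that in A2058 was 0.18 for KLF6, −0.12 for IER5, −0.08 for IER3, −0.04 for IER2 and −0.02 for KLF4. For IER2 the C8161 ratio, and for KLF4 the A2058 ratio, was 0.00 at 2 decimals, so no direction can be given there. With GC and length trends taken out, IER2 was at 0.10 in C8161 and 0.02 in A2058, IER3 at 0.07 and 0.02, and KLF4 at 0.02 and −0.01. No group had 4 columns, so no column could be examined as standing apart from its group.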

How the results depend on the processing

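No paired analysis was possible because the deposited columns combine the 3 libraries of each C8161 arm and carry no replicate number, and for the same reason no replicate could be left out. The counts of members called were recomputed with a pseudocount of 0.1, without a minimum, with a minimum of 5 RPKM, after median centring, after quantile normalization and with GC and length trends taken out. In C8161 with ATF3, 1 member (EGR1) was called higher with the pseudocount of 0.1, where 3.72% of all genes were. With a minimum of 5 RPKM, EGR1, EGR2 and EGR3 were not compared. Then 1 member, NR4A1, was past 2-fold lower in C8161 than in A2058 in the controls, where 19.4% of all genes were. The columns with ATF3 also gave 1, where 20.4% of all genes were lower. Lower thresholds, chosen after the data were seen, called 1 member higher at 1.1-fold in C8161 (EGR1, where 12.7% of all genes were) and, at 1.5-fold between the lines with ATF3, 4 members higher in C8161 (18.1% of all genes) and 3 lower (33.6%). With GC and length trends taken out, IER2 also passed 2-fold between the lines, with log2 ratios of 1.19 with ATF3 and 1.12 in the controls. No called value of a member or named gene changed sign under these alternatives. At 2 decimals, the uncalled ratios that did with ATF3 were those of IER3, KLF4, NAB1, NAB2 and SRF, all in C8161. Between lines, EGR1 did so among the members. IER2 in C8161 and KLF4 in A2058, at 0.00 as deposited, were at 0.10 and −0.01 with GC and length trends taken out. Depth limits EGR1, EGR2, EGR3 and KLF4 most, and in C8161 it is unknown.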
